A study of Mus musculus with 4 samples.

Results

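Choroid plexus epithelial nuclei were described in 4 single-nucleus RNA-seq libraries of mouse forebrain. A nucleus was taken when Folr1, Clic6, Kl, Kcnj13 and Slc4a5 together gave at least 4 unique molecular identifiers (UMIs, each standing for 1 captured transcript) and Ttr gave at least 3. It was left out when Rbfox3, Slc17a7, Slc17a6, Gad1 and Gad2 gave more than 1 UMI, or when Mog, Aqp4 and Csf1r did. This rule found 135 of 78728 nuclei, a share of 0.171% (95% exact Clopper-Pearson interval 0.144 to 0.203). The nuclei were thus selected on measured levels of these genes, and the 6 genes required and the 8 excluded are given below as a description only.

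Under the cortex label, 31 of these nuclei came from the AAV-CTRL library and 44 from the AAV-VEGF-C library, and under the striatum label 40 and 20. All lists of 4 values below keep this order. Each group was 1 library from pooled tissue of 5 male C57BL/6J mice aged 8 weeks, which had received an adeno-associated virus (AAV9) into the cisterna magna at 4 weeks. AAV-VEGF-C carried mouse vascular endothelial growth factor C, and AAV-CTRL carried a soluble fragment of its receptor VEGFR3 that does not bind it, so every mouse carried a virus that makes a secreted protein. The same mice gave tissue to both region labels of an AAV group. With 1 library per group there was no replicate and no test. Every interval below is a 95% interval of counting error, and the spread between mice could not be measured.

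The choroid plexus is a fringe of tissue that floats in the brain ventricles, and its epithelium secretes the cerebrospinal fluid. Its cells pump sodium, chloride and bicarbonate across the apical membrane with water following, and release carrier proteins such as transthyretin (Ttr), the thyroid hormone and retinol carrier of the fluid. They sit on fenestrated capillaries and are joined by tight junctions that form the barrier between blood and fluid. The fluid they make fills the cisterna magna, where the viruses were placed.

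Some regulatory sequence is shown for genes that stood out in these nuclei. Slc4a5, a sodium bicarbonate cotransporter, and Tmem72, a membrane protein, had the highest ratios over all other nuclei of the 4 libraries. Slc4a5 is a gene of the rule, so its ratio was raised by the selection and is a description. Tmem72 is not in the rule. Abca4, a lipid transporter, and Otx2, the homeobox factor of choroid plexus identity, were among the 30 highest and carried the OTX2 core motif TAATCC. For 21 of the 30 genes RefSeq (GRCm38.p6) gave 32 windows of the 250 bases before a transcript start. The motif stood on either strand in 4 of these windows (12.5%), those of Abca4, Otx2, Ace and Rbm47, against 6.25% of 32851 windows of all genes. Otx2, Ace and Rbm47 also had windows without the motif. A match is a run of letters and not a bound site. Windows are shown for Slc4a5, the leading gene, which lacked the motif, and for Abca4, which held it. The Slc4a5 window lies inside the gene, before the start of a shorter transcript. The lines read 5′ to 3′ on the gene's strand, and capitals mark the motif or its reverse complement GGATTA.
Slc4a5, chr6:83237125-83237374, plus strand: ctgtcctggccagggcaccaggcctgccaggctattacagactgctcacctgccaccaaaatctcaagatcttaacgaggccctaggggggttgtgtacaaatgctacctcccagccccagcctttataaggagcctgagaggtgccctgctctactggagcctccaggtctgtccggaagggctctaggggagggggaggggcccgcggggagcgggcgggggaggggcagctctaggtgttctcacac
Abca4, chr3:122044210-122044459, plus strand: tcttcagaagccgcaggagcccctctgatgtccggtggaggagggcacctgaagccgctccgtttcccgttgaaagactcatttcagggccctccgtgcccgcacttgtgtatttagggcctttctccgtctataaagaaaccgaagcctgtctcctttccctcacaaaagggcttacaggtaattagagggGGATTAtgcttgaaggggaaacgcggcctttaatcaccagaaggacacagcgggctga

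Their shares of the libraries were 0.181% (0.123 to 0.256), 0.216% (0.157 to 0.290), 0.169% (0.120 to 0.230) and 0.115% (0.0700 to 0.177). Set as AAV-VEGF-C over AAV-CTRL, the log2 ratio of shares was 0.26 (−0.44 to 0.97) under the cortex label and −0.56 (−1.41 to 0.25) under the striatum label. Both intervals held 0. Ependymal nuclei, which line the same ventricles with motile cilia, numbered 27, 12, 78 and 29. Their share was lower with AAV-VEGF-C under both labels, at −1.42 (−2.53 to −0.39) and −0.99 (−1.65 to −0.35). Fewer cells of a kind and fewer nuclei recovered from it cannot be told apart in these shares.

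**Figure D1:**
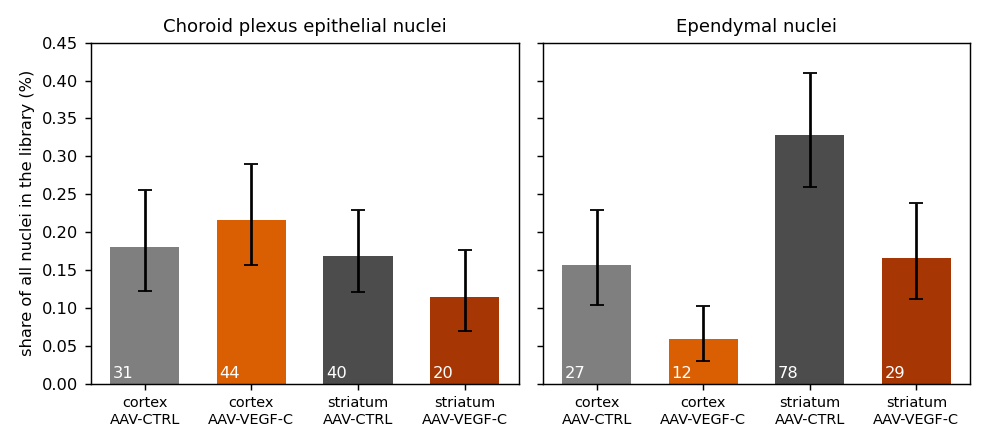
Share of all nuclei in each library (%, vertical axis) for choroid plexus epithelial and ependymal nuclei. Bars give the share, error bars the 95% Clopper-Pearson interval and white numerals the nuclei counted. The 4 choroid plexus shares lie between 0.115% and 0.216% with overlapping intervals, while the ependymal share is highest in striatum AAV-CTRL.

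The share depended on the bounds of the rule. Just outside it were 17 nuclei (2, 3, 9 and 3) with 3 UMIs of the 5 markers and 9 to 145 UMIs of Ttr, and just inside were 21 nuclei (1, 10, 6 and 4) with 4 UMIs of the markers and 5 to 177 of Ttr. Without a minimum of Ttr the rule took 143 nuclei, and without the exclusions 282. When every nucleus was first thinned to 1000 UMIs, 43 of the 135 nuclei stayed (8, 11, 14 and 10) and 30 others entered (7, 10, 4 and 9). The ratio under the striatum label, over nuclei that stayed or entered, was then 0.46 (−0.55 to 1.47). Barcodes shared by a pair of libraries numbered 76 to 118 over the 6 pairs, and 0 of them met the rule in both.

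Depth was even at the median and uneven at the top. The median nucleus had 2941, 2729, 2908 and 2762.5 UMIs, against 2620, 2876, 2271.5 and 2647 in all other nuclei. The highest nucleus had 7360, 33732, 9002 and 10324 UMIs. The nucleus with 33732 UMIs held 19.9% of all UMIs of its 44 nuclei, and 5047 of their 12615 Ttr UMIs (40.0%). It also held 38 UMIs of 19 endothelial and mural markers. The UMIs summed over nuclei were 95772, 169617, 128165 and 62083, and sums scaled to 1000000 are called CPM below.

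A few nuclei passed a bound on UMIs of genes of a second cell type. At least 3 UMIs of the endothelial and mural markers stood in 1, 6, 4 and 1 nuclei, and at least 20 UMIs of the neuronal transcript Meg3 in 0, 0, 1 and 2. These 15 nuclei are called nuclei of mixed content. Scrublet, a doublet caller, marked 0, 2, 1 and 0 nuclei. The endothelial definition (a marker sum) also took 6 of the 135 nuclei and the oligodendrocyte definition 3, and neither the ependymal nor the neuronal one took any. The rule itself left out nuclei by neuronal genes and by Mog. Overlap with the neuronal and oligodendrocyte definitions was thus limited by the selection.

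The label held against genes that the rule did not use. Of 19 other genes of choroid plexus epithelium, 19 were higher than in all other nuclei in each of the 4 libraries, and 17 were also above ependymal nuclei in each. Summed, they stood at 41651, 43197, 46190 and 40381 CPM, against 1237, 1195, 2604 and 2302 in other nuclei. Other cells also gave UMIs of Ttr. It stood at 142 to 471 CPM in oligodendrocyte nuclei, and 26.5% of those nuclei had at least 1 UMI of it (15.7% after thinning to 1000 UMIs, against 99.2% of choroid plexus nuclei).

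At equal depth, Enpp2, Trpm3 and Htr2c were found in nearly all of these nuclei. After thinning to 1000 UMIs (132 of the 135 nuclei had that many), Enpp2, which makes the lipid mediator lysophosphatidic acid, had a UMI in 100% (97.2 to 100). Trpm3, a heat-gated and steroid-gated cation channel, had one in 93.9% (88.4 to 97.3), and Htr2c, the serotonin 2C receptor, in 90.9% (84.7 to 95.2). In 142 ependymal nuclei the 3 genes were found in 13.4%, 21.1% and 4.23%. Oligodendrocyte nuclei had Enpp2 in 67.4% of 5840, a gene they are known to express, and Htr2c in 6.99%. Prlr, the prolactin receptor, was found in 56.1% (47.2 to 64.7) of choroid plexus nuclei and in 0 of 142 ependymal ones, with an exact upper bound of 2.56%. Before thinning, Prlr was found in 78.5% of the 135 nuclei.

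**Figure D2:**
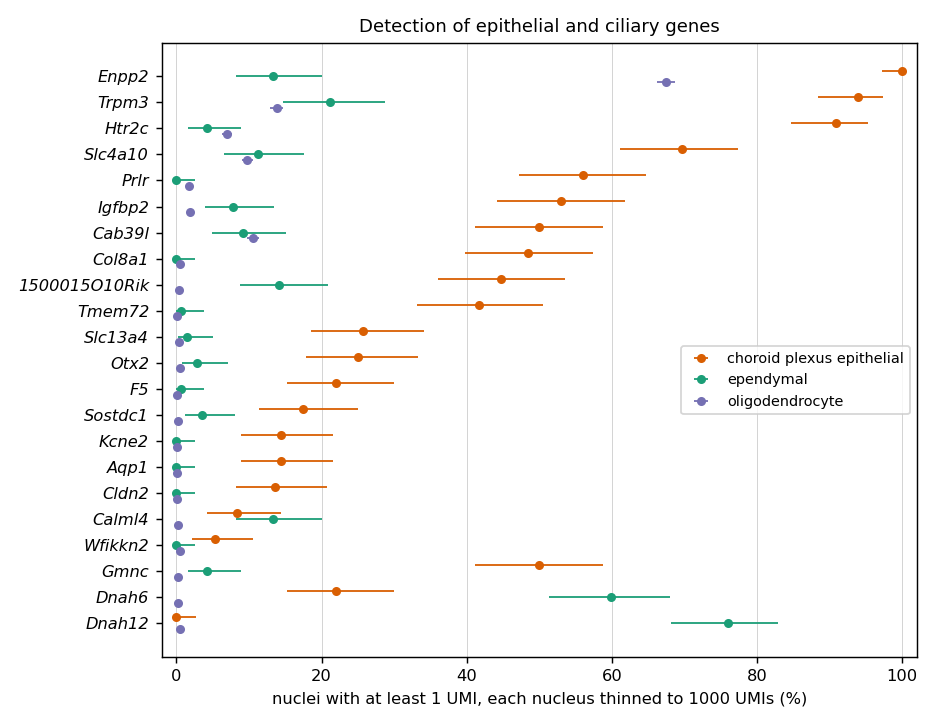
Nuclei with at least 1 UMI of each gene (%, horizontal axis) after every nucleus was thinned to 1000 UMIs, for 132 choroid plexus epithelial, 142 ependymal and 5840 oligodendrocyte nuclei of all 4 libraries. Points give the share and lines the 95% Clopper-Pearson interval. Most epithelial genes lie to the right in choroid plexus nuclei, but Calml4 is at 8.33% there and 13.4% in ependymal nuclei. Wfikkn2 is at only 5.30% in choroid plexus nuclei. The ciliary motor gene Dnah12 is at 0% in choroid plexus and 76.1% in ependymal nuclei.

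The 30 genes with the highest ratio to other nuclei, among those with at least 100 UMIs here, were led by Slc4a5 (256-fold, 241 UMIs), Tmem72 (243-fold, 284 UMIs) and Gmnc (223-fold, 426 UMIs). Of the 30, 6 were in the rule, 10 in the list of other choroid plexus genes and 21 in any list. The ratios of the 6 are a description, since those genes chose the nuclei. Gmnc encodes GEMC1, a regulator of the multiciliated fate. Other leading genes were F5 (coagulation factor V, 133-fold), Sostdc1 (a BMP and Wnt antagonist, 146-fold) and Oca2 (a melanosomal transporter, 131-fold). Trpv4, an osmosensitive cation channel, was 84.9-fold higher and Lmx1a, a roof plate factor, 67.0-fold. Folr1, the folate receptor of the rule, was at 512, 448, 390 and 435 CPM. In GRCm38 coordinates, Slc4a5 (ENSMUSG00000068323) lies at chr6:83219828-83304945 on the plus strand and Tmem72 (ENSMUSG00000048108) at chr6:116679063-116716913 on the minus strand. Enpp2 (ENSMUSG00000022425) lies at chr15:54838901-54952892 on the minus strand and Trpm3 (ENSMUSG00000052387) at chr19:22139046-22995410 on the plus strand.

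Choroid plexus cells carry tufts of cilia, and ependymal cells beating ones. Of 22 ciliary genes, 14 were above other nuclei in every library, and 18 were below ependymal nuclei in every library. Ependymal nuclei were themselves taken by at least 5 UMIs over 6 genes. Any ciliary gene among the 6 was raised there by that selection. Gmnc and Drc7 were above ependymal nuclei in every library, Gmnc at 940, 761, 1241 and 773 CPM. Dnah6, an inner arm dynein, was at 292, 324, 289 and 322 CPM, and after thinning was found in 29 of 132 choroid plexus nuclei and in 59.9% of ependymal ones. Dnah12 gave 0, 1, 1 and 0 UMIs.

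Transporters for ions and water were mostly epithelial genes here. Of 30, 17 were above other nuclei in every library and 2, the potassium channel genes Kcnq1 and Kcna3, gave 0 UMIs. Aqp1, the apical water channel, was at 136, 230, 140 and 226 CPM. Slc4a10, a basolateral sodium bicarbonate transporter, was at 1232, 1427, 1748 and 1466. Car12, a carbonic anhydrase of the cell surface, was at 658, 737, 499 and 548. Slc4a4, the bicarbonate cotransporter of astrocytes, was below other nuclei, at 115, 76.6, 109 and 32.2 CPM against 281, 295, 399 and 323. Kcne2 (178, 195, 242 and 193 CPM), a potassium channel subunit, was 162-fold above other nuclei.

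Positional genes of the hindbrain were at or near 0. Choroid plexus of the hindbrain is known to express Hox genes, while that of the forebrain is not. Of 15 hindbrain genes, 14 gave 0 UMIs in all 135 nuclei, and Meis1 gave 0, 2, 2 and 1. With 455637 UMIs in all, levels of a few CPM could not be told from 0. Of 7 forebrain genes, all were detected, with 14, 29, 14 and 7 UMIs summed. These are 146, 171, 109 and 113 CPM against 98.0, 106, 75.5 and 72.0 in all other nuclei, and 2 of the 7 were higher in all 4 libraries.

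In single nuclei, Ttr took 0.895% to 16.1% of the UMIs in cortex AAV-CTRL with a median of 4.19%, and 1.17% to 15.2% in cortex AAV-VEGF-C with a median of 3.97%. In striatum AAV-CTRL it took 0.0861% to 12.5% (median 1.99%), and in striatum AAV-VEGF-C 0.317% to 14.6% (median 6.52%). The ranges overlapped in all 4 libraries, and the medians were farthest apart between the libraries labelled striatum. Enpp2 had medians of 0.767%, 0.884%, 0.721% and 1.53% and Htr2c of 0.813%, 0.795%, 1.13% and 0.366%. Trpm3 had medians of 1.66%, 1.36%, 1.67% and 0.483%. Striatum AAV-VEGF-C had the highest median of the 4 in Ttr and Enpp2 and the lowest in Htr2c and Trpm3.

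**Figure D3:**
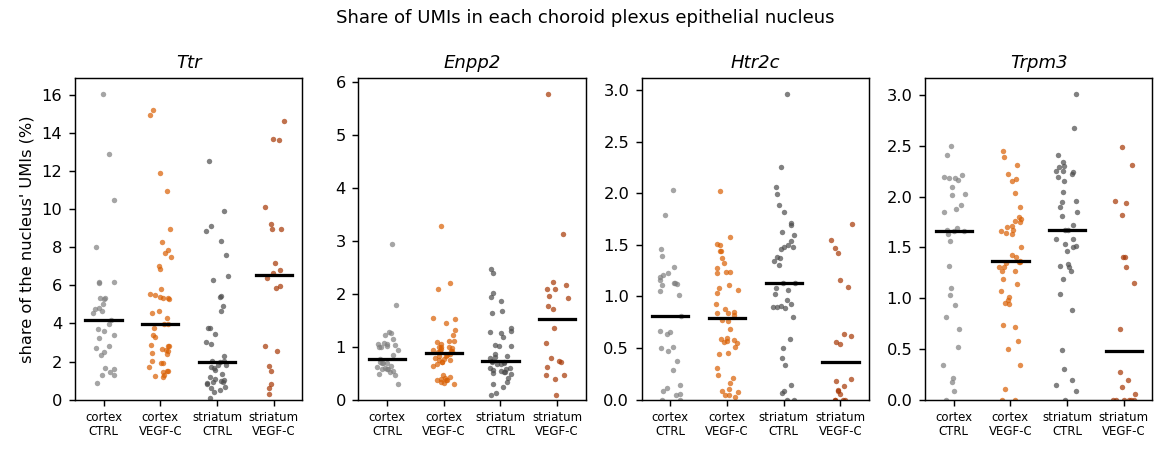
Share of a nucleus' UMIs (%, vertical axis) taken by Ttr, Enpp2, Htr2c and Trpm3 in each choroid plexus epithelial nucleus. Each point is 1 nucleus and each black line the median of its library. In striatum AAV-VEGF-C, 10 of 20 nuclei lie below 0.5% for Trpm3, and its Ttr and Enpp2 medians are the highest.

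The same library held the highest share of nuclei low in Trpm3. Nuclei with under 0.5% of UMIs from Trpm3, a bound chosen after the values were seen, numbered 5 of 31, 5 of 44, 6 of 40 and 10 of 20. Over all libraries the 26 such nuclei had a median of 1398 UMIs, against 3029 in the other nuclei. Mitochondrial transcripts took 3.94% of their UMIs against 1.23%, and Malat1, a nuclear RNA, 1.73% against 3.70%. Ttr took 6.12% against 2.94%, and Htr2c 0.0647% against 1.07%. In cortex AAV-CTRL alone Ttr took 4.19% in the low nuclei and 4.26% in the rest. In striatum AAV-VEGF-C alone, mitochondrial transcripts took 7.76% of UMIs in the 10 low nuclei and 1.40% in the rest. Values without these nuclei are given below for Ttr, Enpp2, Htr2c and the secreted, ribosomal and mitochondrial lists.

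Genes with at least 20 UMIs in the pair of libraries were compared, and a fold of 2 was used as the bound. Under the cortex label 189 of 3055 genes (6.19%) were at least 2-fold higher with AAV-VEGF-C and 160 (5.24%) at least 2-fold lower. Under the striatum label 151 of 2180 (6.93%) were higher and 249 (11.4%) lower. The median log2 ratio was −0.02 and −0.12. Without nuclei of mixed content, 106 and 89 genes were past the bound under the cortex label and 84 genes were higher under the striatum label.

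Genes of secreted proteins were above the middle of all genes under both labels, but under the cortex label not without nuclei of mixed content. Of 29 genes, 22 could be compared under the cortex label, with a median log2 ratio of 0.50, 3 at least 2-fold higher and 0 lower. Under the striatum label 18 could be compared, with a median of 0.38, 2 higher and 0 lower. Over all genes, 6.19% and 6.93% were at least 2-fold higher. Without nuclei of mixed content the medians were 0.01 and 0.50, and without nuclei low in Trpm3 0.49 and 0.16. The summed level of the list was 64518, 100302, 53993 and 84323 CPM, and most of it was Ttr.

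Ttr stood at 46444, 74373, 36110 and 60484 CPM from 4448, 12615, 4628 and 3755 UMIs. The log2 ratio was 0.68 (0.63 to 0.73) under the cortex label and 0.74 (0.68 to 0.81) under the striatum label. Without the deepest nucleus of each library the ratios were 0.21 and 0.96. Without nuclei of mixed content the cortex ratio was 0 when rounded to 2 decimals and the striatum ratio 0.83. Without nuclei low in Trpm3 they were 0.70 and 0.56, and with every nucleus weighted alike −0.04 and 0.93. Ttr is a gene of the rule, so these values are a description.

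Enpp2 stood at 8875, 13837, 9527 and 13369 CPM, with log2 ratios of 0.64 (0.53 to 0.76) and 0.49 (0.36 to 0.62). Without nuclei of mixed content these were −0.04 and 0.59, and without nuclei low in Trpm3 0.65 and 0.25. Sostdc1 stood at 282, 843, 242 and 322 CPM, and 70.6% of its 143 UMIs in cortex AAV-VEGF-C were in 1 nucleus. Its ratio under the cortex label was 1.58 (0.98 to 2.23), 0.25 without the deepest nuclei and −0.06 without nuclei of mixed content.

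Trf, the iron carrier transferrin, was the gene of this list with the largest ratio under the striatum label. It gave 16, 41, 14 and 31 UMIs, or 167, 242, 109 and 499 CPM, in 11, 19, 13 and 14 nuclei. The ratios were 0.53 (−0.33 to 1.47) and 2.19 (1.24 to 3.22), and the second stayed between 2.05 and 2.84 over the alternatives run. Oligodendrocytes are also a known source of Trf. Summed oligodendrocyte markers were at 1873 and 1579 CPM in the libraries labelled striatum, and their part in the Trf level was not tested. Cst3, the protease inhibitor cystatin C, gave 62, 212, 93 and 55 UMIs, and its ratios were 0.95 (0.53 to 1.38) and 0.29 (−0.22 to 0.78).

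For ion and water transport the median log2 ratio was 0.22 over 20 genes and 0.05 over 17 genes. Under each label 1 gene was at least 2-fold higher and 0 lower. The share of all genes was 6.19% and 6.93% higher, and 5.24% and 11.4% lower. Under the cortex label the gene past the bound was Slc12a2, the NKCC1 cotransporter of sodium, potassium and chloride, at 386 and 814 CPM (1.07, 0.54 to 1.64). Slc12a2 stood at 616 and 677 CPM under the striatum label (0.13, −0.44 to 0.69), and without nuclei of mixed content the cortex ratio was 0.35.

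Of 32 carriers of other solutes, 2 of 17 were at least 2-fold higher and 1 lower under the cortex label, and 1 of 14 was higher and 2 lower under the striatum label. These were 0 and 1 of 14, and 0 and 0 of 11, without nuclei of mixed content. Over all genes, 6.19% were higher and 5.24% lower under the cortex label, and 6.93% and 11.4% under the striatum label. Steap1, a metalloreductase, gave 4, 22, 9 and 11 UMIs and had ratios of 1.63 (0.08 to 3.63) and 1.34 (−0.07 to 2.78). Slc31a1, the copper importer CTR1, gave 20, 85, 34 and 14 UMIs, and its ratios were 1.26 (0.55 to 2.04) and −0.23 (−1.25 to 0.70). Slc24a4, a sodium, calcium and potassium exchanger, gave 16, 6, 19 and 4 UMIs, with ratios of −2.24 (−3.88 to −0.81) and −1.20 (−3.22 to 0.39). Abcc4, an efflux pump, was the other gene lower under the striatum label.

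Receptors gave no gene past the bound under the cortex label. Of 14 compared there, 0 were at least 2-fold higher or lower, and 0 counting intervals lay above 0 and 1 below, which was that of Htr2c. Htr2c stood at 8719, 7069, 11641 and 7748 CPM, and its ratios were −0.30 (−0.43 to −0.17) and −0.59 (−0.74 to −0.44). With every nucleus weighted alike these were −0.002 and −1.01, and without nuclei low in Trpm3 −0.38 and −0.31. Prlr gave 114, 228, 158 and 77 UMIs, for ratios of 0.18 (−0.16 to 0.51) and 0.01 (−0.40 to 0.41). Under the striatum label Nr3c1, the glucocorticoid receptor, was the 1 of 12 past the bound, from 25 and 4 UMIs (−1.60, −3.58 to −0.06), and its ratio was 0.23 with nuclei thinned to 1000 UMIs. Over all genes, 11.4% were at least 2-fold lower there.

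**Figure D4:**
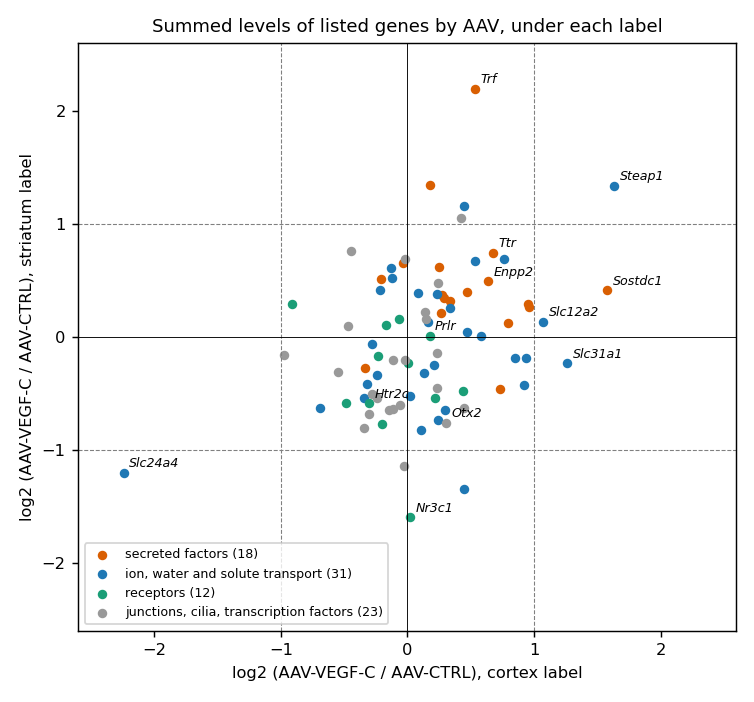
Log2 ratio of CPM, AAV-VEGF-C over AAV-CTRL, under the cortex label (horizontal axis) and the striatum label (vertical axis) for the 84 listed genes compared under both. Each point is 1 gene, colours are gene lists and dashed lines mark 2-fold. Secreted genes lie mostly above 0 on both axes, Steap1 is past 2-fold upwards and Slc24a4 downwards under both labels.

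Ribosomal protein and mitochondrial transcripts can mark how nuclei were prepared. Of 71 ribosomal protein genes under the cortex label, 12 were at least 2-fold higher and 0 lower, with a median of 0.59. Of 64 under the striatum label 9 were higher and 0 lower, with a median of 0.48. The share of all genes at least 2-fold higher was 6.19% and 6.93%. The 13 mitochondrial genes had medians of 0.37 and 0.99, with 0 and 6 at least 2-fold higher. Without nuclei of mixed content the ribosomal medians were 0.10 and 0.74 and the mitochondrial ones −0.41 and 1.15. Under the cortex label the mitochondrial median was also below 0 without the deepest nuclei (−0.18), with thinned nuclei (−0.21) and with nuclei weighted alike (−0.17). Without nuclei low in Trpm3 the ribosomal medians were 0.59 and 0.14 and the mitochondrial ones 0.34 and 0.43. In single nuclei the median mitochondrial share was 2.09%, 1.63%, 0.894% and 2.51%, so it was lower with AAV-VEGF-C under the cortex label and higher under the striatum label. Gene length moved with the ratio as well. Genes of up to 20 kb had median ratios of 0.18 and 0.29, and genes over 100 kb of −0.19 and −0.24. Mitochondrial transcripts made up 2.55%, 3.70%, 1.54% and 2.89% of all UMIs of the choroid plexus nuclei. In all other nuclei they made up 0.719%, 0.961%, 0.908% and 1.12%. Ribosomal protein genes summed to 14274, 22085, 12593 and 18024 CPM here, and to 9968, 12144, 11670 and 14585 CPM in all other nuclei. Both contents were thus also higher with AAV-VEGF-C in all other nuclei under both labels. The part of these contents in the gene ratios was not tested.

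Of the 19 choroid plexus genes outside the rule, 2 were at least 2-fold higher and 0 lower under the cortex label (median 0.29), against 6.19% and 5.24% of all genes. There, 0 of 18 were past it without nuclei of mixed content, with a median of −0.05. Of 17 compared under the striatum label, 0 were higher or lower (median 0.004), against 6.93% and 11.4% of all genes. Junction and polarity genes had 1 of 12 higher and 0 of 8 past the bound, with medians of 0.04 and −0.03, and 0 of 8 higher under the cortex label without nuclei of mixed content. Transcription factors had 0 of 8 past it and 1 of 10 higher, with medians of −0.19 and −0.52. Ciliary genes had 0 of 11 past it and 1 of 9 lower, with medians of −0.02 and −0.63.

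A set of 1994 genes could be compared under both labels, with different libraries but the same mice on each side. At least 2-fold higher under both were 15 of them and lower under both 18, and 11 and 10 were past the bound in opposite directions. The 15 were 15.5% of those higher under the cortex label and 12.7% of those higher under the striatum label, and the 18 were 17.1% and 7.76% of those lower. Of all 1994 genes, 97 were higher and 105 lower under the cortex label, and 118 and 232 under the striatum label. Counting intervals were past 0 under both labels for 8 higher and 10 lower genes. The higher ones were Prkg1, Tenm2, Rabac1, Rpl37, Rps21, Emb, Nkain2 and Atp6ap2. The lower ones were Arhgap10, Folr2, Ewsr1, D630024D03Rik, Luzp2, Rbm5, Pds5b, Npas3, Fgd4 and Col4a4.

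Rabac1, a prenylated Rab acceptor, gave 9, 46, 11 and 17 UMIs in 9, 18, 10 and 9 nuclei, and its ratios were 1.53 (0.48 to 2.75) and 1.67 (0.50 to 2.91). Atp6ap2, the prorenin receptor and a proton pump accessory protein, gave 9, 39, 22 and 22 UMIs, for ratios of 1.29 (0.22 to 2.52) and 1.05 (0.12 to 1.97). Prkg1, a kinase gene of smooth muscle and neurons, was at 31.3, 254, 172 and 564 CPM. Its ratio under the striatum label was 1.72 (0.91 to 2.56), with 77.1% of UMIs in 1 nucleus, and it was −0.97 without nuclei of mixed content. Nkain2, an oligodendrocyte and neuron gene, had a ratio of 1.22 (0.49 to 1.95) there and −0.69 without them.

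Folr2, the second folate receptor gene, gave 16, 8, 21 and 3 UMIs, and was 62.3-fold above other nuclei over the 4 libraries. Its ratios were −1.82 (−3.26 to −0.52) and −1.76 (−4.15 to −0.02), and thinning to 1000 UMIs took the second to 0.55. Ewsr1, an RNA binding protein gene, gave 14, 8, 28 and 4 UMIs (−1.63, −3.09 to −0.28, and −1.76, −3.73 to −0.25). Npas3, a neural transcription factor gene, gave 36, 28, 41 and 5 UMIs (−1.19, −1.95 to −0.43, and −1.99, −3.69 to −0.65). With AAV-VEGF-C, Ewsr1 was found in 8 of 44 and 4 of 20 nuclei and Npas3 in 16 and 3.

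UMIs of VEGF receptor and co-receptor genes were split by the vascular marker UMIs of their nuclei. Kdr, the gene of VEGFR2, gave 2, 13, 4 and 1 UMIs. Of these, 1, 10, 4 and 1 were in the nuclei with at least 3 UMIs of endothelial and mural markers, and 1, 3, 0 and 0 in all others. Of the 10 in cortex AAV-VEGF-C, 7 were in the nucleus with 33732 UMIs, which held 19.9% of all UMIs there. The nucleus with 98 vascular marker UMIs held 2. The co-receptor genes Nrp1 and Nrp2 also gave UMIs in the other nuclei, Nrp1 7, 6, 10 and 3 of its 7, 17, 14 and 6 UMIs, and Nrp2 1, 1, 3 and 2 of its 1, 4, 3 and 3. In cortex AAV-VEGF-C, 11 of 17 Nrp1 and 3 of 4 Nrp2 UMIs were in nuclei with at least 3 vascular marker UMIs. These were 6 of 44 nuclei there, and included those with 33732 and 13532 of the 169617 UMIs. In cortex AAV-CTRL only 1 of 31 nuclei was of this kind. Flt1, the gene of VEGFR1, gave 0, 39, 14 and 3 UMIs, and the pericyte gene Rgs5 gave 2, 43, 16 and 2. Both are among the markers that define those nuclei, so their split between nuclei follows from the definition. The log2 ratio of Flt1 under the cortex label was 2.88 with the 0 UMIs of cortex AAV-CTRL set to the floor of 3. Its counting interval had a lower limit of 2.51. Endothelial nuclei had 232 to 305 CPM of Kdr and 3198 to 3632 CPM of Flt1. Summed endothelial markers stood at 313, 914, 531 and 370 CPM and mural ones at 62.6, 460, 312 and 113.

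**Figure D5:**
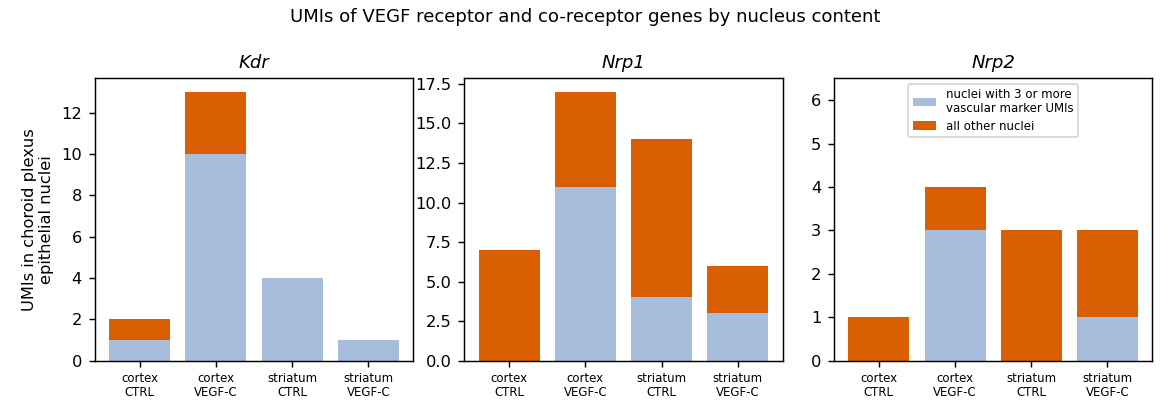
UMIs of Kdr, Nrp1 and Nrp2, which are not among the markers that split the nuclei (vertical axis, a scale for each gene), in the choroid plexus epithelial nuclei of each library. Bars are split into nuclei with at least 3 UMIs of endothelial and mural markers (blue) and all other nuclei (orange). In cortex AAV-VEGF-C 10 of 13 Kdr UMIs are in the first kind, 7 of them in the nucleus with 33732 UMIs. In that library 11 of 17 Nrp1 and 3 of 4 Nrp2 UMIs are also in the first kind. In cortex AAV-CTRL, where only 1 of 31 nuclei is of the first kind, all 7 Nrp1 UMIs are in the second.

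The ligands were sparse. Vegfc gave 0, 2, 1 and 1 UMIs, and the virus-delivered transcript could not be told from the mouse's own. The exact Poisson interval of a count of 0 in cortex AAV-CTRL reaches 38.5 CPM. Vegfa, a ligand that fenestrated capillaries depend on, gave 9, 7, 10 and 1 UMIs, under the 20 needed for a comparison. Flt4, the gene of VEGFR3, gave 0, 1, 0 and 1 UMIs. Ctsd, a protease gene whose product cleaves VEGF-C, stood at 700, 1014, 429 and 757 CPM, and its ratios were 0.54 (0.12 to 0.97) and 0.82 (0.23 to 1.41).

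Markers of other cell types differed between the libraries. Astrocyte markers summed to 1493, 755, 928 and 370 CPM. At least 2-fold lower were 3 of 5 compared genes under the cortex label and 2 of 2 under the striatum label. Without nuclei of mixed content these were 2 of 4 and 1 of 2, and with nuclei weighted alike 1 of 5 and 1 of 2. Over all genes, 5.24% and 11.4% were at least 2-fold lower. With all nuclei kept, the 2 under the striatum label were Slc1a2, a glutamate transporter, and Gpc5. Slc1a2 gave 50, 70, 38 and 3 UMIs and Gpc5 30, 9, 25 and 5. Of the Gpc5 UMIs, 66.7% in cortex AAV-CTRL and 60% in striatum AAV-CTRL were in 1 nucleus each. Neuronal markers summed to 3300, 3024, 3948 and 5992 CPM, against 17487 to 19736 in other nuclei. Their median log2 ratio under the striatum label was 0.56. It was −0.05 without the deepest nuclei and 0.20 without nuclei of mixed content. Fibroblast markers gave 6, 29, 8 and 9 UMIs and red blood cell markers 16, 21, 42 and 17. In striatum AAV-VEGF-C the 2 largest ratios were those of Tmem163 (1 and 23 UMIs) and Kctd16 (3 and 32 UMIs), with 65.2% and 62.5% of UMIs in 1 nucleus. Of 18 clock genes, Clock, Npas2 and Tef were at least 2-fold lower under the cortex label among 5 compared, and 0 of 4 without nuclei of mixed content (median −0.81). Clock was at 219, 94.3, 133 and 64.4 CPM. Of 32 interferon and inflammation genes, 24 were detected and 2 could be compared under each label, of which the adhesion gene Vcam1 was at least 2-fold lower under the striatum label.

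Between region labels, 189 of 2635 genes (7.17%) were at least 2-fold higher under the striatum label and 141 (5.35%) lower in AAV-CTRL. In AAV-VEGF-C 191 of 2635 (7.25%) were higher and 302 (11.5%) lower. Of 2160 genes compared in both AAV groups, 22 were higher in both and 21 lower in both. Past the bound in opposite directions were 15 (higher in AAV-CTRL) and 5 (lower in AAV-CTRL). Of the 2160, 142 were higher and 125 lower in AAV-CTRL, and 137 and 206 in AAV-VEGF-C. The 22 were 15.5% and 16.1% of those higher, and the 21 were 16.8% and 10.2% of those lower. Nrgn, a gene of excitatory neurons, was at 741, 643, 78 and 80.5 CPM in choroid plexus nuclei and at 820, 906, 100.2 and 79.2 in all other nuclei. Camk2n1 (439, 466, 164 and 193 CPM) and Olfm1 (428, 366, 164 and 161 CPM), both neuronal, followed Nrgn. Nrgn thus differed between labels in choroid plexus nuclei and in all other nuclei alike. The list of neuronal markers went the other way in choroid plexus nuclei, with sums of 3300, 3024, 3948 and 5992 CPM. Its median log2 ratio of striatum over cortex label was 0.22 in AAV-CTRL and 0.57 in AAV-VEGF-C. The sum in striatum AAV-VEGF-C leaned on few nuclei, since 145 of 202 UMIs of the neuronal transcript Meg3 there were in 2 nuclei. Ppp1r1b, known from projection neurons of the striatum, was at 62.6, 74.8, 18.1 and 18.1 CPM over all nuclei, so it went against the region labels, and no region is drawn from them here.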

How the data were processed

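Nuclei of pooled forebrain tissue were sequenced by 10x 3′ single-nucleus RNA-seq. The authors deposited UMI counts per gene and barcode, made with Cell Ranger (5.0.1 per the file headers, 5.1.1 and mm10 per the submitters' processing notes). Whether introns were counted is not given in the sources used here. Counts were used as deposited, with Python 3.11.15, numpy 2.4.6, scipy 1.17.1 and pandas 2.3.3. The libraries held 17168, 20370, 23724 and 17466 barcodes, each with at least 719 UMIs. Groups were taken from the labels.

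Counts were summed over choroid plexus nuclei and scaled to CPM. A gene was compared when 2 libraries together gave at least 20 UMIs, and 2-fold was the bound. Intervals are exact 95% Poisson, Clopper-Pearson or conditional binomial ones and cover counting error only. A count of 0 was read against a floor of 3 UMIs. Named genes were those of the gene lists, the 30 leading genes with at least 100 UMIs, up to 10 genes per direction and comparison with intervals past 1-fold, and those past it under both labels, of which a part is printed. The members and lists were chosen with earlier results of these data known. Doublets were called with Scrublet in scanpy 1.11.5 and kept, and leaving them out was an alternative. The alternatives without nuclei of mixed content, without the deepest nucleus and without nuclei low in Trpm3 were chosen after seeing the data. Scripts were tested on simulated data. Gene positions are from GENCODE (GRCm38) and promoter windows from RefSeq. Some genes are not reported here.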

Additional observations from a re-analysis of the deposited data

Results flagged for a closer look

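2 genes were past 2-fold in opposite directions under the 2 region labels, with counting intervals past 0 on both sides. Sgcd, a sarcoglycan of the muscle membrane complex, gave 19, 9, 11 and 14 UMIs (cortex AAV-CTRL and AAV-VEGF-C, then striatum). Its log2 ratio of AAV-VEGF-C over AAV-CTRL was −1.90 (−3.23 to −0.69) under the cortex label and 1.39 (0.15 to 2.68) under the striatum label. Of the Sgcd UMIs, 57.9% in cortex AAV-CTRL and 57.1% in striatum AAV-VEGF-C were in 1 nucleus each. Il1rapl1, a synaptic adhesion protein, gave 16, 9, 32 and 34 UMIs, with ratios of −1.65 (−3.02 to −0.39) and 1.13 (0.39 to 1.88). Of its 34 UMIs, 70.6% were in 1 nucleus. The difference between labels was not tested for either gene, since each group is 1 library.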

How the results depend on the processing

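No paired analysis was possible because each group was 1 library and no test was made. The share ratio under the striatum label was −0.56, and 0.46 when nuclei were thinned to 1000 UMIs, where 14 and 10 of the nuclei stayed and 4 and 9 others entered. Gene counts past 2-fold are given as higher and lower, for AAV under the cortex and striatum labels and then for region label in AAV-CTRL and AAV-VEGF-C. They were 30 and 11, 26 and 32, 28 and 18, and 29 and 31 with a minimum of 50 UMIs, and 1173 and 1600, 2486 and 1148, 1480 and 1736, and 2540 and 1110 with a minimum of 1 UMI. With nuclei thinned to 1000 UMIs they were 34 and 20, 39 and 63, 44 and 27, and 39 and 58. Without nuclei of mixed content, 106 and 89 genes were past it under the cortex label, 84 were higher under the striatum label, and 82 and 182 were past it between labels in AAV-VEGF-C. Without the deepest nuclei, 100 were lower under the cortex label and 111 higher between labels in AAV-VEGF-C. With nuclei weighted alike, 406 were lower under the striatum label and 466 lower between labels in AAV-VEGF-C. The cause was not tested, beyond the fewer UMIs that thinning leaves. Among ratios of at least 2-fold, the sign turned for Sostdc1 (−0.065), Cldn5 (−0.17), Prkg1 (−0.97), Nkain2 (−0.69) and Il1rapl1 (−0.46) without nuclei of mixed content, for Il1rapl1 (−0.38) without the deepest nuclei, and for Nr3c1 (0.23), Vtn (−0.10), Emb (−0.034) and Folr2 (0.55) with thinned nuclei. Of 1003 alternative values for 126 gene ratios, 873 moved little, 120 moved further and 10 turned sign, where turns were counted only for ratios of at least 2-fold. Smaller ratios also crossed 0, such as Enpp2 and Ttr under the cortex label.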
